A study of Mus musculus with 12 samples.

Results

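The 10 genes described here belong to the ATF4 and endoplasmic reticulum (ER) stress programme of mouse cells: the transcription factor genes Atf4, Ddit3 and Xbp1, the ATF4 target genes Trib3, Chac1 and Asns, and the ER genes Hspa5, Hsp90b1, Herpud1 and Dnajb9. Their probes were found by transcript accession, and every probe that mapped to one of these symbols was kept. The arrays of vitamin C and water samples carried 14 such probes of 41174, and the arrays of retinoic acid and DMSO samples carried 12 of 55681. In all there were 21 different probes, of which 5 were on both designs, and each of the 26 combinations of a probe and a comparison was well above background on all 6 arrays with no value missing. All of them therefore entered the tests. A gene had 1 probe in 7 of 10 cases on the vitamin C design and in 8 of 10 cases on the retinoic acid design.

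Unfolded proteins in the ER are sensed by the membrane proteins PERK, IRE1 and ATF6. PERK, like the kinases that sense amino acid shortage, haem deficiency and double-stranded RNA, phosphorylates the translation factor eIF2, which slows protein synthesis but favours translation of ATF4, a transcription factor that turns on amino acid supply, tRNA charging and, under sustained stress, the death-associated factor CHOP, encoded by Ddit3. IRE1 splices the Xbp1 transcript, and XBP1 and ATF6 turn on chaperones and the machinery that withdraws misfolded proteins from the ER. Array signals here are transcript levels, so neither ATF4 translation nor Xbp1 splicing was measured.

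The cells were J1, a line of pluripotent mouse embryonic stem cells grown on 0.2% gelatin in serum-replacement medium that held non-essential amino acids, glutamine, β-mercaptoethanol and LIF at 1000 U/mL. LIF (leukaemia inhibitory factor) keeps mouse stem cells undifferentiated, and total RNA was measured. For 24 h the cells received additions to the medium that defined 4 groups of 3 samples: retinoic acid (RA, 1 µM), its solvent control DMSO (1 µL), vitamin C (VC, 50 µg, with no volume given) and its control ddH2O (1 µL). LIF was present in every group. The series title asks which genes VC and RA regulate in these cells. Nothing in the labels tells whether replicates were separate cultures, and p-values measure only the spread between samples, technical or not.

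Each sample was hybridised to its own one-colour Agilent array, and the number of arrays limits the precision. RA and VC samples were on different array designs, which were scaled and fitted separately. The 3 RA arrays shared 1 slide and the 3 DMSO arrays another, so slide and treatment cannot be told apart in that comparison. Of the VC and ddH2O arrays, VC replicates 1 and 2 and ddH2O replicates 2 and 3 shared a slide, while VC replicate 3 and ddH2O replicate 1 were each on a slide of their own. The share of probes well above background was 60.9% to 64.6% on RA arrays, against 65.1% to 65.7% on DMSO arrays, and the log2 75th percentile of the signal was 8.17 to 8.60 on RA arrays, against 9.25 to 9.26 on DMSO arrays. That share was 67.0% to 70.4% on VC arrays and 68.6% to 68.8% on ddH2O arrays. Transcripts of 12 embryonic stem cell markers were well above background on every RA and DMSO array and of 11 on every VC and ddH2O array, and 11 of the 12 were lower in RA (median log2 difference -4.84), while 9 of 10 tested fibroblast markers and 10 of 12 primitive endoderm markers were higher in RA (medians 3.68 and 2.23), with Pdgfra in both of those lists.

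The promoters of 6 of the 10 genes hold a motif of the pathway, and their windows are shown because the results refer to the motif each one holds. The C/EBP-ATF response element (CARE), to which ATF4 binds with C/EBP partners, was searched as TGATGNAA. The ER stress response element (ERSE), to which ATF6 and XBP1 bind with the factor NF-Y, was searched as CCAAT and CCACG with any 9 bases between. Both strands of the RefSeq window from 250 bases before to 50 bases after each start (GRCm38.p6) were searched, and capitals mark the match, which reads in reverse complement where it lies on the other strand. The window of Chac1 is chr2:119350992-119351291 (plus strand), that of Trib3 chr2:152344011-152344310 (minus strand), that of Asns chr6:7693160-7693459 (minus strand), that of Herpud1 chr8:94386179-94386478 (plus strand), that of Hspa5 chr2:34771840-34772139 (plus strand) and that of Hsp90b1 chr10:86705395-86705694 (minus strand). The first 4 windows carry a CARE core and the last 2 an ERSE in these letters. CCAAT and CCACG at other spacings or in other orientations were not searched. The Herpud1 window also holds CCACG at 2 places. At -46 to -42 from the start it is part of ATTGGGCCACG, where ATTGG is CCAAT in reverse complement. That window thus holds both parts of the ERSE at another spacing and orientation than the one searched.
Chac1: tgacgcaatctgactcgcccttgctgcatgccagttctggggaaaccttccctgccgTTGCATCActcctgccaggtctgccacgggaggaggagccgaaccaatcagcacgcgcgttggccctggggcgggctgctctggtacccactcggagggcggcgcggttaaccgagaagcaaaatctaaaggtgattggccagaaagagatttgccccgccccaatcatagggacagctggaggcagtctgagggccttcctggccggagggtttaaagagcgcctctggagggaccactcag
Trib3: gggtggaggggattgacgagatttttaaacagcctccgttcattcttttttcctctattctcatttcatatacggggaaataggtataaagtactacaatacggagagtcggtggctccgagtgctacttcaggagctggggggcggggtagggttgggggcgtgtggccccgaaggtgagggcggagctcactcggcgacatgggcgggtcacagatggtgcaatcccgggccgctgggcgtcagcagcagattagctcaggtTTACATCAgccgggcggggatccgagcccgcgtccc
Asns: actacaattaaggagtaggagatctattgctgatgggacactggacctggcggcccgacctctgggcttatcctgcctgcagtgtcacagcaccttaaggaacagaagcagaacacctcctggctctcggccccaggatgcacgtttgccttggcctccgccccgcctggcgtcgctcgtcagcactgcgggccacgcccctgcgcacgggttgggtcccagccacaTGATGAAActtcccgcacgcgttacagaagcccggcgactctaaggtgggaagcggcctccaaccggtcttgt
Herpud1: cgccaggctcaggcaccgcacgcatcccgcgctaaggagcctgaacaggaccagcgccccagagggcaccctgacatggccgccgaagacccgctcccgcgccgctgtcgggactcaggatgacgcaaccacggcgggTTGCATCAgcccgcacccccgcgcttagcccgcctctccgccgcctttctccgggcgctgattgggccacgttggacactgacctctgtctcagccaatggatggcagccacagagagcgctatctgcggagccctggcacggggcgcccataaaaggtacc
Hspa5: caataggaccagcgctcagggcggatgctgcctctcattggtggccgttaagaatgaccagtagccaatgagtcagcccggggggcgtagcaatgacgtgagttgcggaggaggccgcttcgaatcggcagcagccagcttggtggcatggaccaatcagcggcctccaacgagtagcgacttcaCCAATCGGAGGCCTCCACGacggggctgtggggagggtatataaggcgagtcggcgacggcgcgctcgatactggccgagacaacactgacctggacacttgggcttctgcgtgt
Hsp90b1: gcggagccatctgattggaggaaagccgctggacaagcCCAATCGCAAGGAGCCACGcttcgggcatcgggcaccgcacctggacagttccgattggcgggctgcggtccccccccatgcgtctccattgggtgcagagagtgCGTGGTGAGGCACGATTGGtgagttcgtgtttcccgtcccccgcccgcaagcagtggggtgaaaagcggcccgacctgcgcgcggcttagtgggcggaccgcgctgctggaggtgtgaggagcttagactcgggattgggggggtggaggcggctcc

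The CARE core was found in 3.97% of all 32851 promoter windows and in 4 of the 10 windows of these genes. The site read TGATGCAA in Chac1 and in Herpud1, TGATGTAA in Trib3, where it lay 15 to 22 bases after the start, and TGATGAAA in Asns. The full ERSE was found in 39 of all windows (0.119%), once in Hspa5 and at 2 places in Hsp90b1. Its CCACG part alone was in 32.8% of all windows and in 7 of these 10, with no overlap counted between motifs apart from the ERSE that contains it. The IRE1-branch element TGACGTGG was in 0.676% of all windows and in 0 of the 10. The windows of Atf4, Ddit3, Xbp1 and Dnajb9 held neither the CARE core nor the full ERSE in these letters. A match is a description of the sequence and not a binding site.

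In RA, Atf4, its targets Trib3, Chac1 and Asns, and Xbp1 and Herpud1 were lower than in DMSO, while Ddit3 and the chaperone Hsp90b1 did not pass the test. Chac1 and Trib3 were the furthest apart, at 7.49-fold and 7.40-fold lower in RA, followed by Asns, Atf4, Xbp1 and Herpud1 at 1.88-fold to 2.81-fold lower over their probes. Of the 12 probes, 8 were lower, 1 was higher and 3 did not pass (limma adjusted p under 0.05 over all 37076 probes tested). Against this stood a wide change of the whole array: 71.6% of all probes were called, 35.5% lower and 36.1% higher. The median log2 difference was -0.93 over the 12 probes and 0.03 over all probes. RA and DMSO arrays did not overlap at 9 of the 12 probes (1 above and 8 below), beside 77.1% of all probes.

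**Figure D1:**
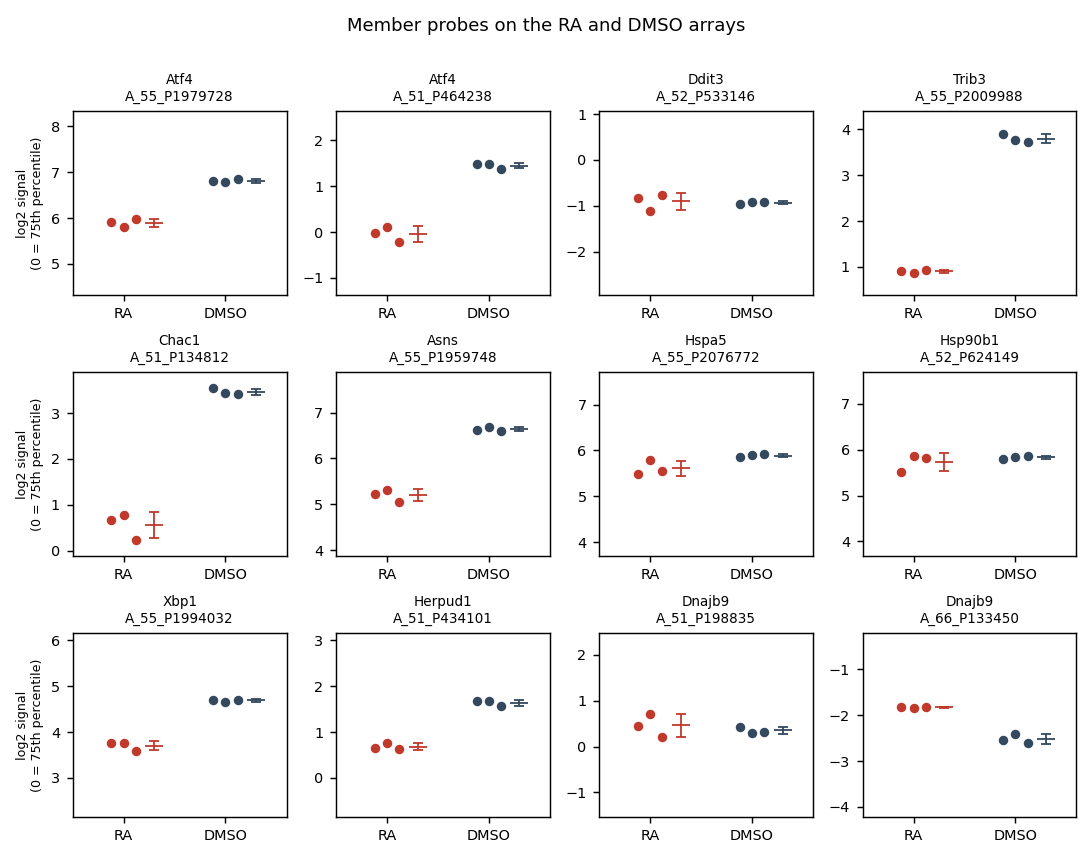
Log2 signal of each probe of the 10 genes on the 3 RA arrays (red) and the 3 DMSO arrays (blue), where 0 is the array's 75th percentile; points are samples, and bars give the mean with SD (n = 3 each). The RA points lie below the DMSO points for both Atf4 probes and for Trib3, Chac1, Asns, Hspa5, Xbp1 and Herpud1, above them for 1 Dnajb9 probe, and overlap them for Ddit3, Hsp90b1 and the other Dnajb9 probe.

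Among the transcription factors, Atf4 itself was lower in RA at both of its probes. All values that follow are log2 signals relative to the 75th percentile of their own array, and each difference is RA minus DMSO or VC minus ddH2O. Probe A_55_P1979728 for Atf4 read 5.92, 5.80 and 5.98 in RA samples, against 6.80, 6.78 and 6.85 in DMSO samples. The 3 RA samples were all below the 3 DMSO samples, and the difference was -0.91 (SE 0.08, 95% interval -1.10 to -0.72, limma adjusted p = 0.000122), or 1.88-fold lower in RA. The other Atf4 probe, A_51_P464238, read -0.01, 0.11 and -0.22 in RA samples, against 1.48, 1.49 and 1.38 in DMSO samples. Its groups were again apart, with a difference of -1.49 (SE 0.10, interval -1.75 to -1.24, limma adjusted p = 5.69e-05). Both probes thus gave the same direction, and the sizes differed. In whole-culture RNA, fewer cells with a transcript and less of it per cell cannot be told apart.

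Xbp1, the substrate of IRE1 splicing, was also lower in RA. Its probe read 3.76, 3.76 and 3.59 in RA samples, against 4.71, 4.65 and 4.71 in DMSO samples. No RA sample reached a DMSO sample, and the difference was -0.98 (SE 0.08, interval -1.17 to -0.79, limma adjusted p = 9.32e-05), or 1.98-fold lower in RA. Ddit3, which encodes CHOP, did not pass the test. It read -0.82, -1.11 and -0.77 in RA samples, against -0.95, -0.93 and -0.91 in DMSO samples. The groups overlapped, with RA replicate 2 the lowest of the 6 samples. The difference was 0.03 (SE 0.11, interval -0.23 to 0.29, limma adjusted p = 0.833).

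The ATF4 targets Trib3 and Chac1 were the members with the largest differences, and 5.87% and 5.80% of all tested probes differed by more in either direction. Trib3 encodes a pseudokinase that binds the kinase AKT and restrains ATF4 and CHOP. It read 0.91, 0.88 and 0.94 in RA samples, against 3.91, 3.77 and 3.72 in DMSO samples. The RA samples lay close together and far below every DMSO sample, with a difference of -2.89 (SE 0.08, interval -3.08 to -2.70, limma adjusted p = 1.68e-06). Chac1 encodes an enzyme that breaks down glutathione. It read 0.67, 0.77 and 0.23 in RA samples, against 3.54, 3.44 and 3.42 in DMSO samples. RA replicate 3 was the lowest, all RA samples were below all DMSO samples, and the difference was -2.91 (SE 0.15, interval -3.28 to -2.53, limma adjusted p = 1.80e-05).

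Asns, the enzyme that makes asparagine and a classic target of ATF4 under amino acid shortage, was 2.72-fold lower in RA. It read 5.22, 5.31 and 5.06 in RA samples, against 6.63, 6.69 and 6.60 in DMSO samples. The groups did not overlap, and the difference was -1.45 (SE 0.09, interval -1.66 to -1.23, limma adjusted p = 3.40e-05). All 3 ATF4 targets were lower in RA. Their promoter windows hold the CARE core shown above, and its part in these values was not tested. Atf4 and Xbp1, whose windows hold neither motif in these letters, were lower too.

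The ER genes gave different results from each other. Herpud1 encodes a membrane protein of the ER-associated degradation complex. Its window holds a CARE core and both parts of the ERSE at another spacing. Herpud1 was lower in RA at 0.66, 0.76 and 0.62, against 1.68, 1.67 and 1.56 in DMSO samples. Its groups were apart by -0.96 (SE 0.08, interval -1.15 to -0.77, limma adjusted p = 0.000104). The chaperone genes Hspa5 and Hsp90b1, whose windows hold the ERSE at the spacing searched, differed less. The part of these motifs was not tested. Hspa5, which encodes the main ER chaperone BiP, read 5.48, 5.79 and 5.55 in RA samples, against 5.85, 5.89 and 5.92 in DMSO samples. The samples did not overlap, though RA replicate 2 came close to the lowest DMSO sample. The difference was -0.28 (SE 0.10, interval -0.53 to -0.03, limma adjusted p = 0.0454), or 1.21-fold lower. That call was lost without RA replicate 1 (-0.22, adjusted p = 0.122), RA replicate 3 (-0.25, 0.0943), DMSO replicate 1 (-0.30, 0.0897), DMSO replicate 2 (-0.28, 0.114) or DMSO replicate 3 (-0.26, 0.126), and it held without RA replicate 2 (-0.37, 0.00688).

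Hsp90b1, the ER member of the HSP90 chaperones (GRP94), read 5.51, 5.85 and 5.82 in RA samples, against 5.80, 5.84 and 5.86 in DMSO samples. The groups overlapped, and the difference of -0.11 (SE 0.11, interval -0.38 to 0.16) did not pass (limma adjusted p = 0.405). Dnajb9 encodes ERdj4, a co-chaperone of BiP that holds IRE1 in check, and its 2 probes differed in size and call. Probe A_51_P198835 read 0.45, 0.72 and 0.22 in RA samples, against 0.44, 0.30 and 0.33 in DMSO samples, which overlapped (difference 0.11, SE 0.14, limma adjusted p = 0.505). Probe A_66_P133450 read -1.81, -1.84 and -1.82 in RA samples, against -2.54, -2.41 and -2.61 in DMSO samples. At that probe every RA sample was above every DMSO sample, with a difference of 0.70 (SE 0.08, interval 0.50 to 0.89, limma adjusted p = 0.00043). Both Dnajb9 differences were thus above 0, and only that of A_66_P133450 was called. The sign at A_51_P198835 turned with median scaling (-0.23).

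The median difference of all probes was 0.03 with the 75th percentile, -0.31 when arrays were scaled to their median, -0.36 when scaled to the spike-in controls and -0.04 after quantile normalization, and 50.4%, 34.0%, 30.7% and 47.0% of calls were higher in RA. Atf4 at both probes, Trib3, Chac1, Asns, Xbp1 and Herpud1 stayed lower and called in each of the 17 alternatives run (16 for the second Atf4 probe). Over those alternatives the log2 difference lay between -1.30 and -0.54 for Atf4 at A_55_P1979728, -1.88 and -1.40 for Atf4 at A_51_P464238, -1.37 and -0.69 for Xbp1, -1.83 and -1.09 for Asns, and -1.34 and -0.88 for Herpud1. It lay between -3.27 and -2.73 for Trib3 and -3.29 and -2.74 for Chac1. Hspa5 turned to 0.08 after quantile normalization (adjusted p = 0.559), against -0.62 with median scaling. Ddit3 turned to -0.31 with median scaling (adjusted p = 0.0220), and Hsp90b1 gave -0.45 (adjusted p = 0.0110). With that scaling the median of all probes was itself at -0.31, and Hsp90b1 lay -0.14 from it. The higher Dnajb9 probe gave 0.31 with spike-in scaling and was then not called (adjusted p = 0.385).

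**Figure D2:**
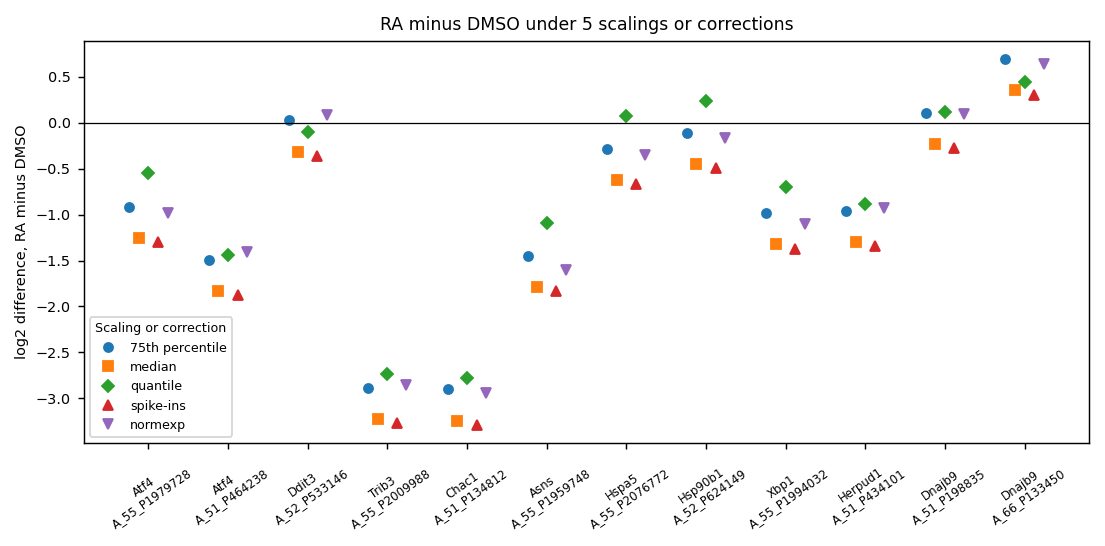
Log2 difference, RA minus DMSO, of each probe of the 10 genes (horizontal axis) under 5 scalings or background corrections (symbols). Trib3, Chac1, Asns, Xbp1, Herpud1 and both Atf4 probes lie below 0 under all 5, while Hspa5, Hsp90b1, Ddit3 and 1 Dnajb9 probe lie on both sides of 0.

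Differences taken within each array do not depend on a scaling by 1 factor per array. The Trib3 log2 signal minus that of Hspa5 on the same array was -4.57, -4.92 and -4.60 on RA arrays, against -1.94, -2.12 and -2.20 on DMSO arrays, so the pair changed unequally by -2.61. The Chac1 signal minus Hspa5 was -4.81, -5.02 and -5.31 on RA arrays, against -2.31, -2.45 and -2.50 on DMSO arrays. Against Hspa5, RA arrays were also all below DMSO arrays for both Atf4 probes (-0.63 and -1.21), Asns (-1.17), Xbp1 (-0.70) and Herpud1 (-0.68). They were all above for Hsp90b1 (0.17) and both Dnajb9 probes (0.39 and 0.98), and they overlapped for Ddit3 (0.31). These values show unequal change within an array and not which transcript of a pair changed. They reuse the signals already tested, and the share of all probes apart on this measure was not taken.

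The genes around the 10 were read from lists of the pathway, each gene by its brightest probe; of all 16035 genes tested, 75.6% were called, 40.7% lower and 34.9% higher in RA, with a median difference of -0.07. The amino acid supply genes that ATF4 is known to drive were lower almost throughout. Of 18 tested, 17 were lower and 0 higher (limma; also 0 higher at an unadjusted p under 0.05), 14 of them by at least 2-fold, with a median of -1.56. Slc7a3, a transporter of basic amino acids, read 0.95, 0.89 and 0.74 in RA samples, against 5.49, 5.50 and 5.54 in DMSO samples, a difference of -4.65. Cth and Cbs, the enzymes that turn homocysteine into cysteine, differed by -3.87 and -3.26. The exception, named after its value was seen, was the neutral amino acid transporter Slc1a4 at 0.03.

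The cytosolic aminoacyl-tRNA synthetases, which charge tRNAs and many of which are ATF4 targets, were lower too. Of 18, 16 were lower and 0 higher (limma; 0 higher at an unadjusted p under 0.05), with a median of -1.03, and 10 were at least 2-fold lower. Nars, Farsb and Lars differed by -1.86, -1.55 and -1.41. Those not called, named after their values were seen, were Dars (-0.38) and Wars (-0.13). Under the alternatives run, 15 to 18 of the 18 synthetases and 16 to 18 of the 18 amino acid genes were lower.

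The other ATF4 and CHOP target genes were split, with 9 lower, 5 higher and 4 not called of 18 and a median of -0.26. Gdf15, a secreted stress cytokine, read -3.55, -3.42 and -3.39 in RA samples, against 0.25, 0.31 and 0.22 in DMSO samples, 13.1-fold lower in RA. Ndrg1 and the secreted glycoprotein gene Stc2 differed by -3.22 and -3.10. In the other direction, the stress-induced factor Atf3 read 2.06, 2.09 and 1.66 in RA samples, against -1.83, -1.86 and -1.83 in DMSO samples, 13.7-fold higher in RA. Cebpb and Atf5, factors that pair with or follow ATF4, were higher by 1.32 and 0.87. Of these higher calls, 2 were left with spike-in scaling.

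The ER lists were mixed. Of 23 chaperones and folding enzymes, 9 were lower and 6 higher, with a median of -0.02. The lectin chaperone Canx, the secreted factor Manf and the glycoprotein sensor Uggt1 fell by 0.55, 0.52 and 0.43 on the log2 scale, while the prolyl isomerases Fkbp14 and Ppib and the chaperone Hspa13 rose by 1.18, 0.37 and 0.70. The split turned on the scaling, being 14 lower and 2 higher with median scaling, 10 lower and 1 higher with spike-in scaling and 3 lower and 8 higher after quantile normalization.

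Of 17 genes of ER-associated degradation, 9 were higher and 2 lower, with a median of 0.30. Among them Ubxn4 and Selenos rose by 1.34 and 0.74, and Derl3 and Edem2 fell by 1.83 and 0.55. With median scaling 5 were higher and 4 lower, and with spike-in scaling 2 were higher and 3 lower. Of 17 translocon and signal peptide processing genes, 7 were lower (Ssr2 at -1.08, Sec11c at -0.63 and Spcs3 at -0.61) and 3 higher, with a median of 0.01. The higher ones were Sec62 (0.41, though its other probe gave -0.30), Ssr3 (0.31) and Ssr4 (0.28), and 1 was left without DMSO replicate 1, 2 or 3, 0 with median or spike-in scaling and 8 after quantile normalization.

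Of 17 sensors and regulators, 8 were lower and 3 higher, with a median of -0.17. Eif2s1, the eIF2 subunit that is phosphorylated, was lower by its brightest probe (-0.82, its other probe 0.10), as were the ATF6 protease Mbtps2 (-0.72) and the haem-regulated kinase Eif2ak1 (-0.50). Ern2, Eif2ak2 and Nck1 were higher by 0.69, 0.37 and 0.33, and with median or spike-in scaling 0 of the list were higher. The mean log2 level of the stem cell markers also differed, at 0.83 to 0.94 in RA samples, against 4.94 to 4.97 in DMSO samples. That of the fibroblast markers was -0.25 to -0.16 in RA samples, against -3.47 to -3.33 in DMSO samples. Of these fibroblast markers, 10 of 12 were above background in RA samples and 9 of 12 in DMSO samples. Primitive endoderm markers averaged -0.91 to -0.76 in RA samples, against -2.62 to -2.56 in DMSO samples. The part of such markers in the results on the 10 genes was not tested.

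**Figure D3:**
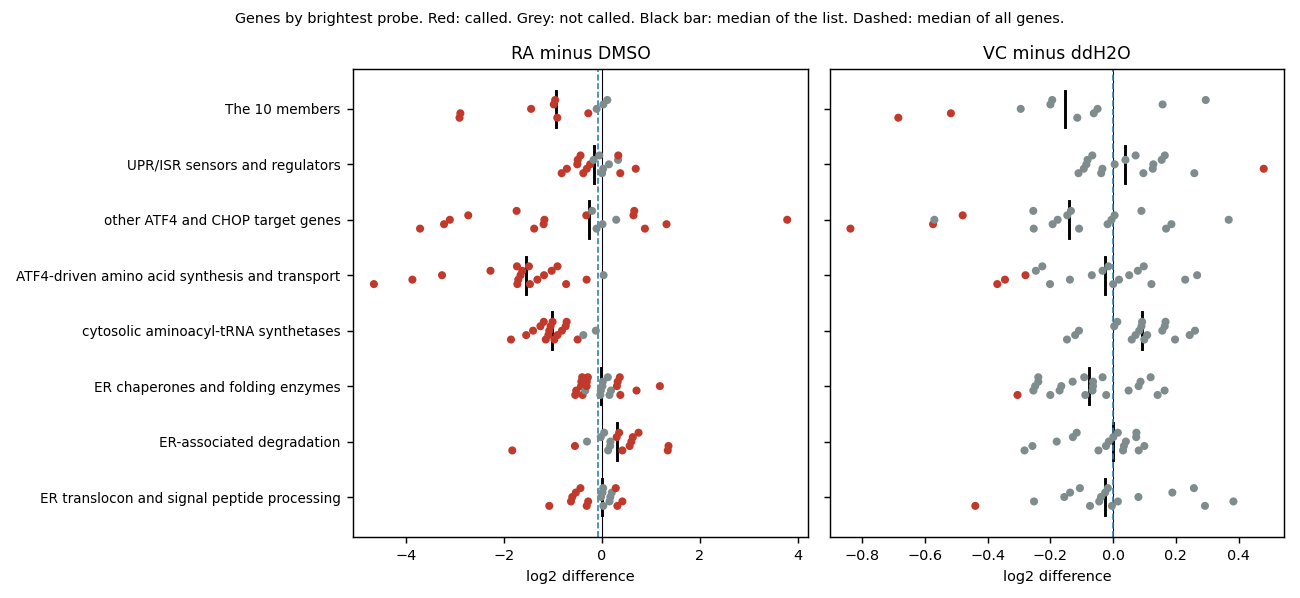
Log2 differences of the 10 genes and of the genes of each pathway list, by brightest probe, RA minus DMSO on the left and VC minus ddH2O on the right; points are genes (red called, grey not called), black bars list medians, and the dashed line is the median of all genes. In RA the amino acid and synthetase lists lie almost wholly below 0 and the ER lists lie around 0, and in VC most points are grey.

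In VC, 2 of the 10 genes passed the test, and both were lower than in ddH2O: Chac1 and Herpud1. Of 14 probes, 2 were lower, 0 higher and 12 not called (limma adjusted p under 0.05 over 28186 probes; 5 were lower and 1 higher at an unadjusted p under 0.05). Of all probes 8.27% were called, 5.3% lower and 2.96% higher. An unadjusted limma p under 0.05 was reached by 8080 of all 28186 probes, in either direction. Higher calls were 35.8% of all calls, against 56.3% when arrays were scaled to their median and 9.33% when scaled to spike-in controls. The median difference was -0.07 over the 14 probes and 0.01 over all probes. VC and ddH2O arrays did not overlap at 7 of the 14 probes (2 above and 5 below), beside 36.6% of all probes.

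**Figure D4:**
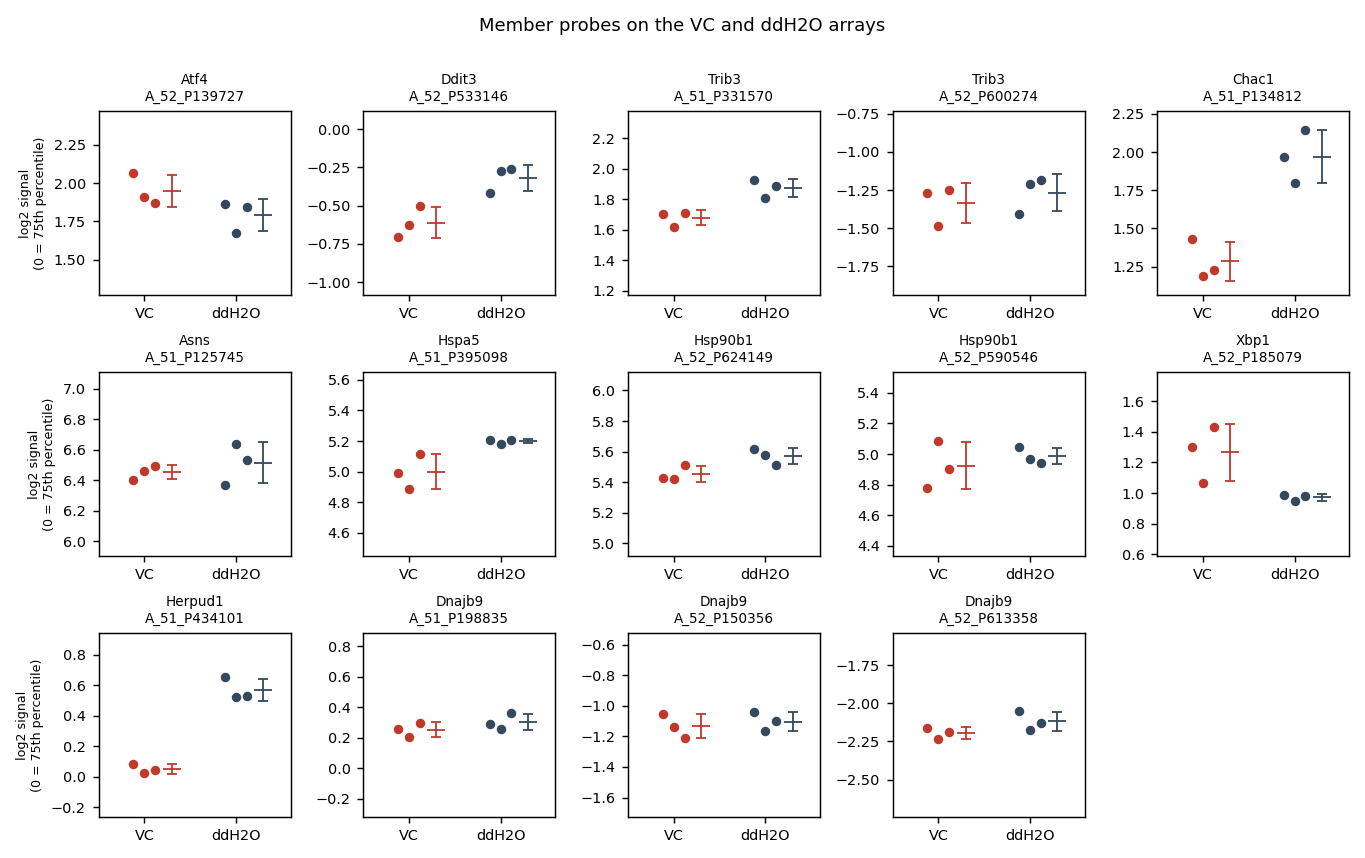
Log2 signal of each probe of the 10 genes on the 3 VC arrays (red) and the 3 ddH2O arrays (blue), where 0 is the array's 75th percentile; points are samples, and bars give the mean with SD (n = 3 each). The VC points lie clearly below the ddH2O points for Chac1 and Herpud1, and the other panels show small gaps or overlap.

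Chac1 read 1.43, 1.19 and 1.23 in VC samples, against 1.97, 1.79 and 2.14 in ddH2O samples. The groups were apart, with a difference of -0.68 (SE 0.11, interval -0.96 to -0.41, limma adjusted p = 0.0258), or 1.61-fold lower in VC, and 2.43% of tested probes differed by more. Herpud1 read 0.09, 0.02 and 0.04 in VC samples, against 0.65, 0.52 and 0.53 in ddH2O samples. It differed by -0.52 (SE 0.06, interval -0.67 to -0.36, limma adjusted p = 0.0169), or 1.43-fold lower in VC. With the slide as a random block both calls held, at -0.68 for Chac1 (limma adjusted p = 0.0242) and -0.51 for Herpud1 (0.0142). Within the slide that held both groups, and equally with the slide as a fixed block, the differences were -0.66 for Chac1 (adjusted p = 0.147) and -0.47 for Herpud1 (adjusted p = 0.112). The sizes were close and the calls were lost, and in those fits 0 of all 28186 probes were called. The Chac1 call was also lost without any 1 of the 6 samples: VC replicate 1 (-0.76, adjusted p = 0.0724), VC replicate 2 (-0.64, 0.0609), VC replicate 3 (-0.66, 0.0655), ddH2O replicate 1 (-0.68, 0.0896), ddH2O replicate 2 (-0.77, 0.0861) or ddH2O replicate 3 (-0.60, 0.0562). The Herpud1 call was lost without VC replicate 1 (-0.53, adjusted p = 0.0702), ddH2O replicate 1 (-0.48, 0.0696) or ddH2O replicate 2 (-0.54, 0.0861).

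The other 8 genes were not called in VC. Ddit3 read -0.70, -0.63 and -0.50 in VC samples, against -0.41, -0.27 and -0.26 in ddH2O samples. All VC samples were below, with a difference of -0.29 (SE 0.08, limma adjusted p = 0.0738), and a fit of brightest probes alone (adjusted p = 0.0466) or with a variance trend (0.0355) called it. Xbp1 read 1.30, 1.07 and 1.43 in VC samples, against 0.99, 0.95 and 0.98 in ddH2O samples. All VC samples were above (difference 0.30, SE 0.10, limma adjusted p = 0.118). Its value in RA had the opposite sign and came from a different probe on the other design.

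Atf4 read 2.07, 1.91 and 1.87 in VC samples, against 1.86, 1.67 and 1.84 in ddH2O samples, just apart at 0.16 (SE 0.09, limma adjusted p = 0.276). Hspa5 read 4.99, 4.89 and 5.12 in VC samples, against 5.21, 5.18 and 5.21 in ddH2O samples, all below at -0.20 (SE 0.07, limma adjusted p = 0.141). Trib3 was all below at A_51_P331570, with 1.70, 1.62 and 1.71 in VC samples against 1.93, 1.81 and 1.88 in ddH2O samples (difference -0.19, SE 0.06, limma adjusted p = 0.107), while its groups overlapped at A_52_P600274 (-0.07, adjusted p = 0.693). For those 3 genes the gap between the groups did not pass after adjustment over all probes tested. The unadjusted limma p was 0.111 for Atf4, 0.0343 for Hspa5 and 0.0204 for Trib3 at A_51_P331570. Asns overlapped at -0.06 (interval -0.26 to 0.14), as did both Hsp90b1 probes (-0.11 and -0.06, though A_52_P624149 came close to separation) and the 3 Dnajb9 probes (-0.05, -0.03 and -0.08).

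Measured within each array against Hspa5, VC arrays were all below ddH2O arrays for Chac1 (-0.49) and Herpud1 (-0.32) and all above for Xbp1 (0.50), Atf4 (0.36), Trib3 at A_52_P600274 (0.13) and Dnajb9 at A_51_P198835 (0.15). The arrays overlapped for Trib3 at A_51_P331570 (0.01), Ddit3 (-0.09), Asns (0.14), both Hsp90b1 probes (0.09 and 0.14) and the other Dnajb9 probes (0.17 and 0.12). Chac1 and Herpud1 were thus lower in VC relative to Hspa5 of the same array. These values reuse the signals already tested and are no further test. The share of all probes apart on this measure was not taken.

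**Figure D5:**
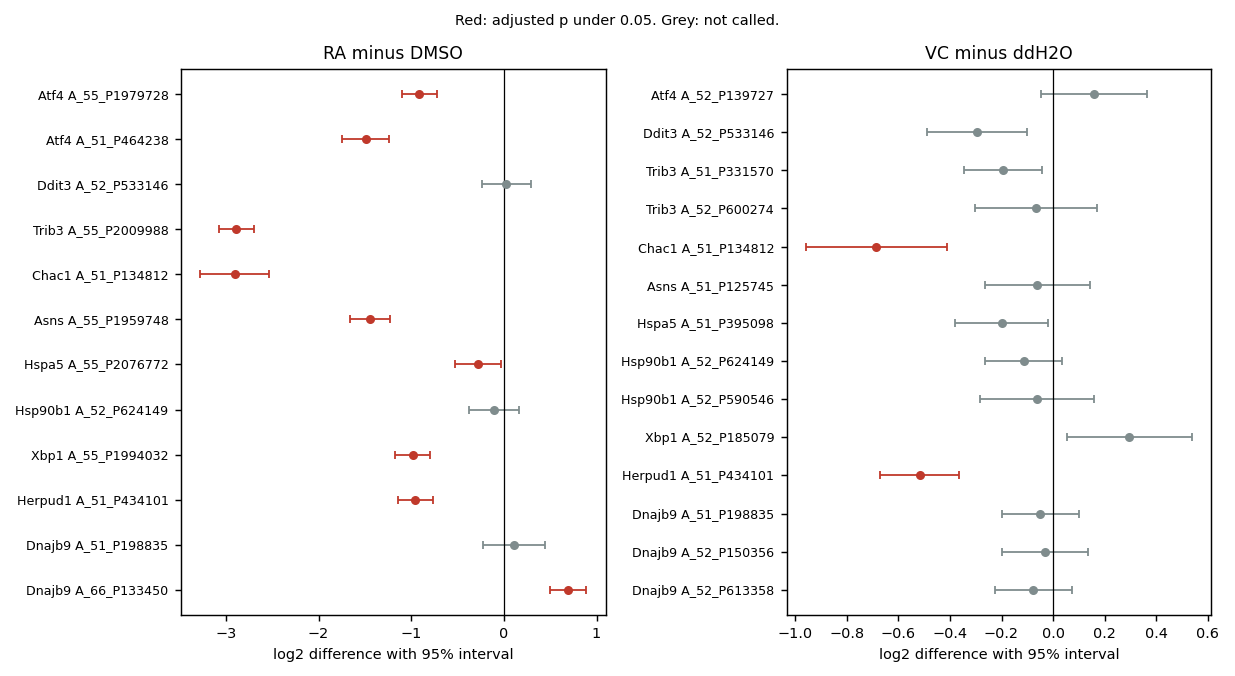
Log2 differences with 95% intervals of every probe of the 10 genes, RA minus DMSO on the left and VC minus ddH2O on the right, with separate horizontal scales; red points had a limma adjusted p under 0.05. Chac1 and Herpud1 are red and below 0 in both panels. In the RA panel Atf4, Trib3, Asns, Xbp1 and Hspa5 are also red and below 0, and Dnajb9 at A_66_P133450 is red and above 0.

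The pathway lists gave few calls in VC, where 10.3% of 14550 genes were called, 7.11% lower and 3.17% higher. In a limma fit of brightest probes alone, 5040 of the 14550 genes had an unadjusted p under 0.05 in either direction. The unadjusted counts of each list below stand beside that background. Of 18 other ATF4 and CHOP targets, 3 were lower (the lipoprotein receptor gene Vldlr at -0.84, Atf3 at -0.57 and Ndrg1 at -0.48) and 0 higher, with 2 higher at an unadjusted p under 0.05. Atf3 read -2.26, -2.30 and -2.30 in VC samples, against -1.78, -1.69 and -1.68 in ddH2O samples. Of 18 amino acid genes, 3 were lower (Slc1a4 at -0.37, its other probe -0.01, Slc6a9 at -0.34 and Cbs at -0.28) and 0 higher, with 2 higher at an unadjusted p under 0.05. Of the synthetases, 0 of 18 were called in limma, with 5 higher and 0 lower at an unadjusted p under 0.05.

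Of 22 ER chaperones, Fkbp14 alone was called (-0.30), with 8 lower and 1 higher at an unadjusted p under 0.05. Spcs3 alone of 17 translocon genes was called (-0.44), with 3 lower and 4 higher unadjusted. Of 17 degradation genes 0 were called in limma, with 2 lower and 0 higher unadjusted, and of 17 sensors Eif2ak1 alone was called (0.48, its other probe 0.13), with 2 higher and 0 lower unadjusted. Without VC replicate 1, ddH2O replicate 1 or ddH2O replicate 2, 0 genes of these lists were called. Without VC replicate 2, VC replicate 3 or ddH2O replicate 3 the lower calls among other targets were 3, 1 and 1, and those of the amino acid, chaperone and translocon lists were 0. Eif2ak1 was called without VC replicate 2 and in none of the other 5. Stem cell markers averaged 3.95 to 4.04 in VC samples, against 3.71 to 3.82 in ddH2O samples, with 5 of 11 higher in VC, and their part in these values was not tested.

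The 5 probes that sat on both designs let the same oligonucleotide be read in both comparisons, which share no samples. Chac1 gave -2.91 in RA and -0.68 in VC, and Herpud1 gave -0.96 in RA and -0.52 in VC. Ddit3 gave 0.03 and -0.29, Hsp90b1 -0.11 and -0.11, and Dnajb9 0.11 and -0.05, in the order RA and VC. The Chac1 and Herpud1 probes were called in both comparisons and the other 3 in neither, and the difference between the comparisons was not tested.

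Genes whose signal followed that of Atf4 most closely over the 6 RA and DMSO arrays were B9d1, Klk1 and Snhg12, with Pearson r of 0.9998, 0.9997 and 0.9997. The 6 points form an RA and a DMSO cluster, and no r was taken within a group. Of the other members, Trib3 had r of 0.992, Xbp1 0.977, Asns 0.974, Chac1 0.974 and Herpud1 0.971, while Hspa5 had 0.763, Hsp90b1 0.413, Ddit3 -0.01 and Dnajb9 -0.44. Over the 6 VC and ddH2O arrays the closest were Prss42, Aar2 and Med22 (r of 0.990, 0.986 and 0.985). Of the other members there, Ddit3 had r of -0.85, Asns -0.79, Hsp90b1 -0.69, Hspa5 -0.59 and Herpud1 -0.58. Chac1 and Trib3 each had -0.42, Dnajb9 -0.16 and Xbp1 0.58. These are descriptions over few arrays.

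Beyond the 10 genes, genes whose promoter window holds a CARE core were called in RA in shares close to those of all genes with a window. Of 375 other tested genes with such a window, 38.9% were lower and 38.7% higher, with a median difference of 0.04, beside 41.1% lower, 34.3% higher and a median of -0.08 for all 12718 other genes with a window. Of 20 other genes with a full ERSE, 8 were lower and 4 higher, with a median of -0.15. In VC, 9.35% of 321 genes with a CARE core were lower and 3.12% higher. Of all 11587 genes with a window, 6.71% were lower and 3.12% higher. Of 20 genes with a full ERSE, 0 were lower and 1 higher in VC. None of these shares was tested.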

How the data were processed

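The deposited scanner tables give each spot's processed intensity, from which Agilent Feature Extraction (10.7.3.1 in the headers, 10.7 per the submitters' processing notes) had removed background and spatial trend, per the file headers. A second set of tables, deposited for the series, holds the authors' log2 values, by a normalization not given in the sources used here. They served as an alternative. Here the processed intensity was put on a log2 scale and set relative to the 75th percentile of non-control spots on its array. Outlier-flagged spots were left out, and repeated spots were averaged per probe. No spot was saturated. A probe entered the fit if 3 or more of the 6 arrays of its design showed it well above background. The fit used lmFit and eBayes of limma 3.58.1, run in R 4.3.3, with p-values adjusted over all of them by the Benjamini-Hochberg method and called under 0.05. The fit was also run on simulated data with noise drawn independently for each probe and array. Its outcome is not given here and backs no result above.

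The files give an accession and no gene name for a probe. Accessions were matched to symbols through a RefSeq table for GRCm38.p6, used for names: 27479 of 41174 probes on the VC design and 27235 of 55681 on the RA design matched. The 10 genes and the pathway lists were chosen with earlier results of these data known. In each list the text names up to 3 called genes with the largest rise and 3 with the largest fall whose arrays did not overlap, and the 3 genes most like Atf4 by Pearson r. One gene that this rule names is not reported here. Same-numbered samples did not deviate together (r from -0.12 to 0.06 in VC and from -0.05 to -0.002 in RA). Such values cannot tell whether the samples were paired by number, and the reported fit used no pairing.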

Additional observations from a re-analysis of the deposited data

How the results depend on the processing

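Of 202 alternative values for the 12 RA probes, 179 had the sign and call of the reported fit, 8 were no longer called, 1 became called and 14 had the opposite sign, 11 of them called in neither fit. Ddit3 gave -0.31 with median scaling, -0.36 with spike-in scaling and -0.10 after quantile normalization or with the authors' series values, and -0.038 to 0.13 with 1 sample left out. Hspa5 gave 0.079 after quantile normalization and 0.075 with the authors' values, and Hsp90b1 0.24 with both and -0.17 to 0.0010 with 1 sample left out. Dnajb9 at A_51_P198835 gave -0.23 with median and -0.28 with spike-in scaling, and -0.020 to 0.23 with 1 sample left out. Of 276 for the 14 VC probes, 246 had the same sign and call, 19 were no longer called, 2 became called and 9 had the opposite sign, all 9 called in neither fit. Those were Dnajb9 at A_52_P150356 (0.019 with median scaling, 0.018 with normexp, 0.036 with a slide block or within the shared slide, and -0.072 to 0.0059 with 1 sample left out), Dnajb9 at A_51_P198835 (0.00099 with median scaling), and, with 1 sample left out, Hsp90b1 at A_52_P590546 (-0.15 to 0.0084), Trib3 at A_52_P600274 (-0.14 to 0.010) and Asns (-0.13 to 0.0014). The cause of each shift was not tested. In VC, 835 probes were higher and 1495 lower, against 1387 higher after scaling to the median, 18 and 175 after scaling to spike-ins, 188 and 354 with normexp, 1849 higher with a variance trend, and 0 and 0 with no filter on dim probes, a replicate block, a slide block or within the shared slide, where 7634, 7642, 6070 and 6070 probes of either direction had an unadjusted p under 0.05 (8080 in the reported fit). Genes numbered 461 higher and 1035 lower, against 766 higher (median), 5 and 122 (spike-in), 124 and 276 (normexp), 957 higher (fit of brightest probes), 1161 higher (trend) and 0 and 0 in the same 4 fits. With 1 sample left out, probes were 0 to 265 higher and 0 to 771 lower, genes 0 to 134 and 0 to 558, and probes of the 10 genes 0 to 1 lower; the last were 0 with spike-in scaling, no filter, and the replicate and slide blocks, which changed no other call of the 10 genes in VC. The Chac1 adjusted p was 0.0809 and that of Herpud1 0.0802 with the replicate block, which in RA also ended the Hspa5 call (0.0766).

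In VC lists, those 4 fits gave 0 calls. Of the sensors, 0 were higher with spike-in scaling or normexp, and 0 to 1 with a sample left out. Other targets had 1 lower with spike-in scaling, 5 lower and 2 higher with a trend, and 0 to 3 lower with a sample left out. Amino acid genes had 0 lower with median scaling, spike-in scaling, normexp or any sample left out, 5 with the authors' values and 6 with brightest probes or a trend, and 1 higher with median scaling and 2 with brightest probes or a trend. Synthetases had 1 higher with a trend. Chaperones had 0 lower with median scaling, spike-in scaling, normexp or any sample left out, 3 with brightest probes and 6 with a trend. Degradation genes had 1 lower with all arrays above background, brightest probes, a trend or a random slide block. Translocon genes had 0 lower with median scaling, spike-in scaling, normexp or any sample left out, 2 with brightest probes or a trend, and 1 and 2 higher with those.

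In RA, 13375 probes and 5593 genes were higher, against 6268 and 2695 with spike-in scaling and 22637 probes with no filter; normexp and no filter each put 63.6% of calls higher. Of the probes of the 10 genes, 0 were higher with spike-in scaling, where the Dnajb9 probe was not called. Sensors had 0 higher with median or spike-in scaling and other targets 2 with spike-in scaling, while amino acid genes had 1 higher with no filter. Chaperones had 2 higher and 14 lower with median scaling, 1 higher with spike-in scaling and 3 lower after quantile normalization or with the authors' values. Degradation genes had 5 higher and 4 lower with median scaling and 2 higher under the spike-in scaling. Translocon genes had 0 higher with median or spike-in scaling, 8 higher and 4 lower with quantile or authors' values, 11 lower with median scaling, 1 higher with a replicate block and 1 to 4 higher with a sample left out.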
